A study of Rattus norvegicus with 47 samples.

Results

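Untreated rat testis was set against a universal rat reference RNA on all 23 saline arrays of the series, of 47 arrays in all. Each array carried the RNA of 1 animal in one dye and the reference, purchased as total RNA, in the other. The animals were Sprague-Dawley males aged 90 days, whose right testis parenchyma was sampled 4, 8, 12 or 24 h after saline (5, 6, 6 and 6 animals), the design text giving the injections as intraperitoneal. They were the concurrent controls of rats given methoxyacetic acid, whose arrays were not used, other than through the series table named below. The make-up of the reference is not given in the sources used here. It is taken here as a single preparation, so that no spread between preparations is counted. The spread over arrays is then that of the animals and of the hybridisations, those of the reference channel included.

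The adult testis consists of seminiferous tubules, in which germ cells pass from spermatogonia through meiotic spermatocytes and haploid round spermatids to elongating spermatids, supported by Sertoli cells. Peritubular myoid cells wrap the tubules, and Leydig cells, macrophages and vessels lie between them. Germ cells transcribe many genes that other organs do not use, among them substitutes for widely expressed enzymes whose own gene is on the X chromosome, which is silenced during meiosis.

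Values are log2 ratios of testis over reference, made from the raw intensities of both channels with the median of each array set to 0. Before that step the array medians lay between -1.44 and 0.18, and that overall difference between the channels was removed, so that higher and lower mean relative to the typical probe. A probe was called when limma's treat test placed its mean ratio beyond a 2-fold minimum with a Benjamini-Hochberg adjusted p under 0.05 over 20500 probes. The sample labels name Cy5 for testis, whereas testis is taken here as the channel headed Cy3. The signs given here therefore oppose the labels, under which every one would turn and the 297 higher and 1507 lower calls described below would become 1507 higher and 297 lower. The direction was set by 2 short lists of genes, which are no results for that reason. List counts below are therefore also given without them. In the channel headed Cy3 the 5 measured testis genes (Sycp3, Adam2, Acrv1, Tcp11 and Ddx25) had a median log2 ratio of 1.03, above 0 on 23 of 23 arrays. Their means ran from 0.71 to 1.43, and 2 of the 5 passed the 2-fold test. The 5 measured genes of other organs (Sftpc of lung, Umod of kidney, Myh6 of heart, Gfap of brain and Ckm of muscle) had a median of -3.09, below 0 on 23 of 23 arrays. Of these, 3 passed the test with means from -4.59 to -3.09, while Gfap was at -0.51 and Ckm at 0.07. Dyes were not swapped between arrays, so a bias of the dyes and a difference between testis and reference cannot be told apart for any single probe.

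The median intensity per array was 431 to 1749 in the testis channel and 641 to 2742 in the reference channel. Between 43.5% and 97.2% of probes were marked above background, a mark that proved to be a limit on the testis channel alone. From 7 to 175 probes per array in the testis channel and 8 to 167 in the reference channel stood at the scanner's ceiling. The arrays' ratios correlated with those of the other arrays at a median r of 0.738 to 0.855. The lowest values belonged to saline 24 h animal 42 (0.738) and saline 8 h animal 18 (0.753). Without both, 246 probes were called higher and 1550 lower, an alternative added after seeing the data.

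Of the 20500 probes, 297 (1.45%) were called higher in testis and 1507 (7.35%) lower. With 1 probe per gene, the brightest, 193 of 9644 genes (2.00%) were called higher and 918 (9.52%) lower. The lower calls were also the larger ones. The 388 lower genes whose testis signal was above background on all arrays had a median of 3.21-fold and a highest of 29.2-fold, against a median of 2.5-fold and a highest of 4.02-fold among the genes called higher. No such limit was set on the reference signal of the higher genes. Only 14 genes exceeded 3-fold upward, whereas the measured means of 528 exceeded 3-fold downward and those of 66 exceeded 8-fold. Of the 193 higher genes 192 stood above 0 on all 23 arrays, and 915 of the 918 lower genes stood below 0 on all 23. Genes called on these same arrays for a mean beyond 2-fold would mostly do so, and the count is no further test. The median SD of a probe over the arrays was 0.31 log2 units and its median SE 0.07. Calls also followed brightness. With the probes in 10 equal groups from dim to bright, 237 of the 297 higher calls came from the brightest group, and none of either kind from the dimmest 4 groups. Ratios themselves drifted, with a median of 0.40 in the dimmest group, -0.28 in the next to brightest and 0.04 in the brightest. The 224 probes never above background had a median of 0.37, so a dim probe at that ratio stands no higher than probes without a detected signal. Under loess normalization, which removes that drift, 357 probes were called higher and 1204 lower. Of the 297 and 1507 calls above, 182 and 1139 were among them. With the authors' deposited ratio the calls were 468 and 1129, of which 29.3% were higher, against 16.5% of the calls above and 30.3% with the series table read as labelled (477 and 1096). Of the 23 saline columns there, 10 hold the values of a treated array, so those last counts are not of saline animals alone.

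**Figure D1:**
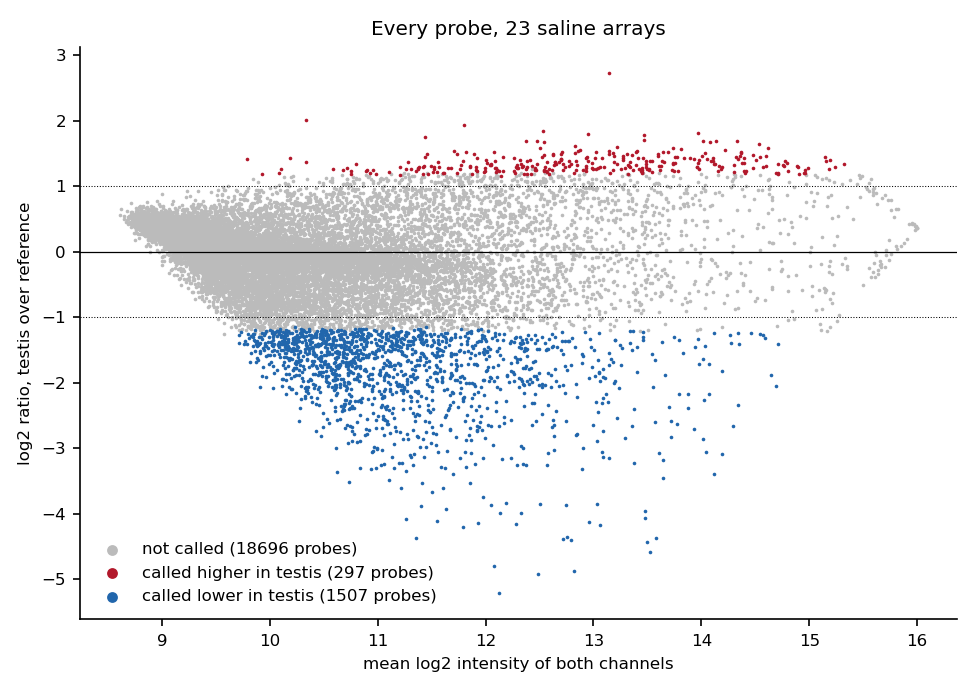
Each point is 1 of 20500 probes, with the mean log2 intensity of both channels on the x axis and the mean log2 ratio of testis over reference across 23 saline arrays on the y axis, and dotted lines at 2-fold. The 297 higher calls (red) crowd at the bright end and reach 2.73, and the 1507 lower calls (blue) reach down to -5.21.

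The gene standing highest above the reference was Sycp1, which encodes the transverse filament of the synaptonemal complex, the protein ladder that pairs chromosomes in meiosis. Its log2 ratio was 1.35 on the lowest array, 2.06 at the median and 2.58 on the highest, a 4.02-fold mean (log2 2.01, SE 0.07, adjusted p = 3.4e-16). Its median raw intensity was 2126 in testis and 676 in the reference, where the array medians had a median of 1108. No background was subtracted from these values. With a normexp background correction the log2 ratio of Sycp1 was 2.79. Means of the hybridisation days ran from 1.53 to 2.44, so every day placed it past 2-fold. Smc1b, the meiotic form of a cohesin ring subunit, came next with 1.01, 2.03 and 2.71 at the lowest, median and highest array (mean 1.94, SE 0.07, adjusted p = 1.3e-13). No array of either gene fell to 0. After them came Ccdc34 (1.84) and Ift74 (1.82), a part of the intraflagellar transport machinery that builds cilia and flagella. Pim1, a serine/threonine kinase, stood at 1.79 and Eid3, a subunit of the SMC5-SMC6 complex, at 1.78. Catsper2, a pore subunit of the calcium channel of the sperm tail, had ratios from 0.79 to 2.70 with a median of 1.64 (mean 1.70, SE 0.08, adjusted p = 1.3e-09). Spam1, the sperm surface hyaluronidase, ran from 1.06 to 2.40 with a median of 1.52 (mean 1.59, SE 0.07, adjusted p = 3.8e-09). Kif3b, a kinesin-2 motor subunit, stood at 1.69, Cetn1, a centrin of the basal body, at 1.52, and Fscn3, the testis form of the actin bundler fascin, at 1.53. The 20 highest genes also held members with no germ-cell name, among them the kinase Ptk2 at 1.61 and the deubiquitinases Otub2 at 1.60 and Atxn3 at 1.57. The zinc-finger gene Zfp819 had 1.70, Fam209 had 1.69 and Gdpd1, a phosphodiesterase, had 1.59, although the other probe of Gdpd1 gave 0.90. Plekhh2 (1.55), Ttc39d (1.54) and C2cd6 (1.53) completed them. Under loess the ratios of Gdpd1 and Cetn1 were 1.06 and 1.04 and were no longer called.

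At the other end stood genes that mark other organs. Cyp4a3, a fatty acid hydroxylase of liver and kidney, had ratios from -5.97 to -4.23 with a median of -5.10 (mean -5.21, SE 0.09, adjusted p = 4.9e-31). Its testis signal was above background on 5 of 23 arrays, with a median raw intensity of 615 in testis against 27299 in the reference. With testis signals raised to each array's detection limit it was at least 32.8-fold lower. The surfactant protein genes of the lung were among the 20 lowest, Sftpc being one of the genes that set the direction, like Umod of the kidney. Sftpb ran from -5.91 to -3.65 with a median of -4.98 (mean -4.92, adjusted p = 9.4e-30), followed by Sftpc at -4.59, Sftpa1 at -4.06 and Sftpd at -3.87. The reference was at the scanner's ceiling for Sftpc on all 23 arrays, so its 24.0-fold difference is an at least 24.0-fold one. Pck1, the gluconeogenic enzyme of liver and kidney, had ratios from -5.74 to -4.01 (median -4.88, mean -4.87, adjusted p = 5.0e-31). The kidney supplied Kap at -4.44, Umod at -4.37, Cltrn at -4.37, Cyp2c23 at -4.00 and the dicarboxylate transporter Slc13a3 at -3.99. For Kap and Umod the reference was at the ceiling on 16 and 21 arrays, and the testis signal of Cltrn was above background on 4. The other probe of Cyp2c23 gave -1.29. Snap25, the synaptic fusion protein of neurons, ran from -6.18 to -3.61 with a median of -4.73 (mean -4.80, adjusted p = 5.8e-29). Cpe, which trims peptide hormones, stood at -4.39 and Tff3, the trefoil peptide of gut goblet cells, at -4.35. The remaining members were Emp2 (-4.20), Ifi27l2b (-4.16), Ppp1r1a (-4.14), Spp2 (-4.08, above background on 4 arrays), the matricellular gene Sparcl1 (-3.96) and Ndrg4 (-3.86).

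**Figure D2:**
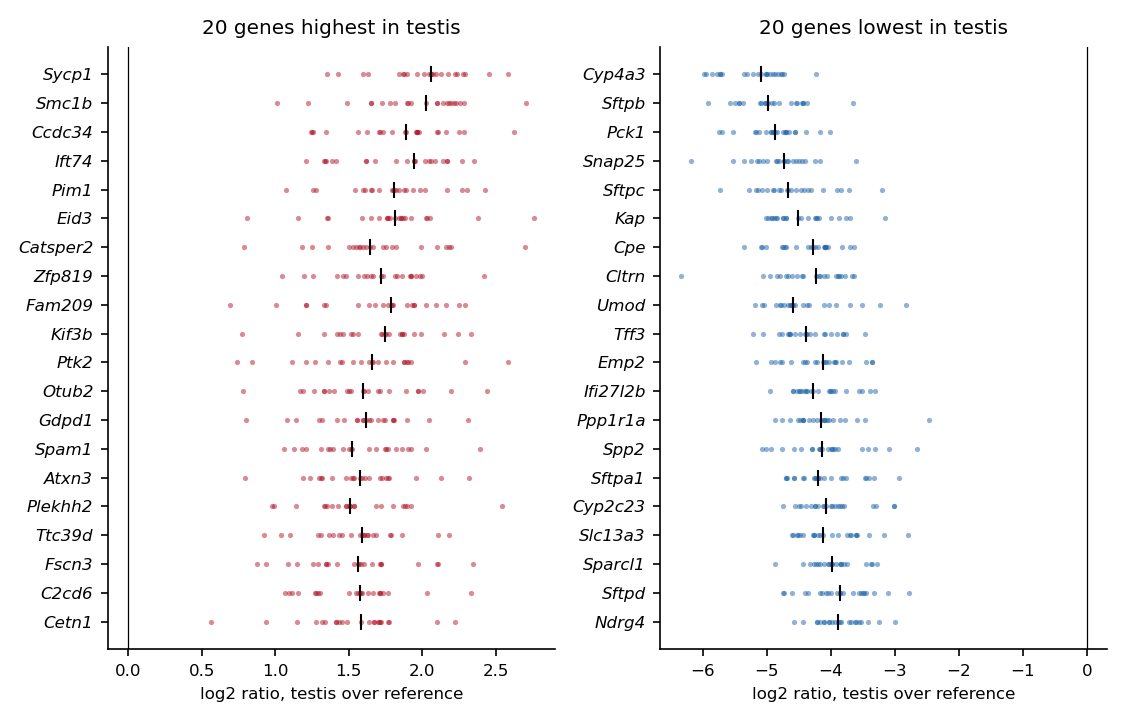
Each point is the log2 ratio of testis over reference on 1 of 23 saline arrays, and the black ticks are medians, for the 20 highest and the 20 lowest called genes (x axes differ between panels). On every array the points of the highest genes lie above 0, down to 0.56 for Cetn1, and those of the lowest genes lie below 0, up to -2.46 for Ppp1r1a.

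Among germ cells, the lists of spermatocytes and spermatids stood above the reference and the spermatogonial list did not. In bulk tissue fewer cells of a type and less RNA per cell cannot be told apart. Over all 9644 genes 2.00% were called higher and 9.52% lower, the shares to set beside the counts of each list below. Of 12 measured spermatocyte genes, 4 were called higher and none lower, with a median log2 ratio of 0.90 against -0.01 over all 9644 genes. Without Sycp3, which helped to set the direction, 3 of 11 were higher at a median of 0.88. Beside Sycp1 and Smc1b these were Sycp2, from the lateral element of the synaptonemal complex (0.90 to 2.27, mean 1.49, adjusted p = 5.7e-08), and Sycp3, also of the lateral element. Sycp3 had a mean of 1.43 and lost its call under loess, with 1.00. At the low end stood the recombination genes Mlh3 at 0.05 and Msh5 at -0.26, neither called. Of 10 measured spermatogonial genes 1 was called, and the list's median was -0.24. Id4, an inhibitor of bHLH factors that marks spermatogonial stem cells, was lower at -1.24 (from -2.21 to -0.42, adjusted p = 0.024), and lost its call with a normexp background correction, at -1.11. Dmrt1 (0.41), Kit (0.39), Zbtb16 (0.30) and Gfra1 (-0.48) were above background on 5, 1, 1 and 2 of 23 arrays, so most of that list was near the limit of what the arrays detected in testis.

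In round spermatids 4 of 14 genes were called higher and none lower, with a median of 0.93, and without the 3 genes that helped to set the direction 3 of 11 were higher at 0.86. With Catsper2 and Spam1 these were Spaca3, an acrosomal lysozyme-like protein (0.71 to 2.21, mean 1.38, adjusted p = 4.6e-05), and Adam2, the fertilin beta subunit (1.25). Acr, the acrosomal protease acrosin, stood at 0.63 and Gopc, a Golgi protein needed for acrosome formation in mice, at -0.34, neither called. Of 22 elongating spermatid genes 8 were called higher and none lower, at a median of 1.02, but 13 were at the ceiling on some array. Of the other 9 genes 4 were higher, at a median of 1.06. Under loess 3 of the 22 were called higher, 16 stood above 0 and the median was 0.76. Spata19, a mitochondrial protein of the sperm midpiece, had 1.45 and the thioredoxin Txndc8 had 1.39. The tektins, filament proteins of the flagellar axoneme, were called in all 3 measured members, Tekt3 at 1.36, Tekt1 at 1.35 and Tekt2 at 1.26. Cabyr of the fibrous sheath (1.33), Spata3 (1.27) and Hils1, a linker histone of elongating spermatids (1.19), were the others. Under loess Txndc8 (1.38), Tekt1 (1.44) and Akap4 (1.29), the main fibrous sheath protein, were called. Spata19 had 1.04, Tekt2 1.02, Tekt3 0.87, Cabyr 0.78 and Hils1 0.64.

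Several of the best known products of late spermatids could not be placed, because their probes were at the ceiling on most or all arrays. Tnp1, the transition protein that replaces histones before protamines do, stood at that ceiling on all 23 arrays in both channels, and no ratio can be given for it. Smcp, of the mitochondrial capsule, was at the ceiling on 23 arrays in testis and 22 in the reference, Dbil5 on 23 and 21, and Odf1, of the outer dense fibres, on 21 and 21. Tnp2 was saturated on 6 arrays in each channel. It had a median raw intensity of 34919 in testis against 41860 in the reference, and a ratio between -0.24 and 0.57. Its mean of 0.24 was not called, and was -0.42 under loess and -0.08 with the deposited ratio. Beyond saturation, the whole elongating spermatid list was bright in both channels, with a median brightness rank at percentile 99.2 of all probes in testis and 98.0 in the reference. Over all genes called higher these ranks were 97.1 in testis and 89.5 in the reference, and over all genes called lower 64.2 in testis and 89.9 in the reference. In these data, then, probes for late spermatid genes also carried high reference signal, whose source was not tested.

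Lists of germ cell machinery and sperm structure also had medians above 0. Of 5 measured genes of the piRNA pathway and germ granule, which silences transposons, 2 were called higher and none lower, at a median of 0.98, and without Ddx25, which helped to set the direction, 2 of 4 at 1.15. Tdrd7, a tudor protein of the germ granule, stood at 1.36 and Ddx4, the vasa helicase, at 1.32 (0.63 to 1.99, adjusted p = 3.0e-04), while Tdrd7 lost its call under loess (0.79). Of 11 genes of the sperm surface and fertilisation 5 were higher and none lower, at a median of 1.15, and without Adam2 4 of 10 at 1.14. Beside Spam1 and Adam2 they were Tex101, a surface glycoprotein, at 1.34, Adam1a, the partner of Adam2, at 1.30 and Clgn, the chaperone of sperm membrane proteins, at 1.26. The other probe of Clgn gave 0.46, and Tex101 lost its call under loess (0.91). In the axoneme list, with a median of 0.72, 1 of 8 genes was higher, the central apparatus gene Spag16 at 1.52, and Rsph1, of the radial spoke head, was at -0.23. Of 24 genes of the cell cycle only Plk1, the mitotic and meiotic kinase, was called, at 1.29 (0.62 to 2.42, adjusted p = 0.0042), and none was lower.

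The lists of the supporting and hormone-producing cells had medians near 0. The shares called lower were 9.09% in the Sertoli list and 12.5% in the Leydig list, near the 9.52% over all genes, where 2.00% were higher. Of 22 Sertoli cell genes, 2 were called higher and 2 lower, with a median of 0.13. Aard, an alanine- and arginine-rich protein of Sertoli cells, was highest (0.85 to 2.30, median 1.49, mean 1.48, adjusted p = 1.5e-07). Cst9l, a cystatin, followed at 1.24 and lost its call under loess (1.09). Lower were Ctsl, the protease cathepsin L, at -1.44 and Kitlg, the stem cell factor, at -1.55, for which the 4 probes ran from -1.55 to 0.35. Amhr2, the receptor of anti-Müllerian hormone, had 0.96, Inha, the inhibin alpha subunit, 0.42, and Fshr, the receptor of follicle-stimulating hormone, 0.06, none of them called. Of 16 Leydig cell genes none was higher and 2 were lower, with a median of -0.09 that was 0.01 with the deposited ratio. Star, which brings cholesterol into the mitochondrion, had a ratio of 0.95, between 0.45 and 1.79, with a median raw intensity of 1070 in testis against 683 in the reference. It missed the 2-fold test, and passed it with the normexp correction, at 1.48. Cyp17a1, an enzyme of androgen synthesis, stood at 0.63 and Cyp11a1, which cleaves the cholesterol side chain, at 0.12. The lower ones were Ptgds, a prostaglandin D synthase, at -1.33 and Hsd11b1, which regenerates glucocorticoid, at -1.63 (adjusted p = 1.5e-08).

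Among the remaining somatic cells of the organ, the myoid and endothelial lists had medians well below 0, at -1.12 and -1.56. Of 8 peritubular myoid genes 4 were lower, led by the smooth muscle proteins Tagln at -3.05 (-3.49 to -2.54, adjusted p = 4.0e-27) and Cnn1 at -2.48, with Actg2 at -1.72 and Myl9 at -1.38. The other 4 were not called, Lmod1 at 0.002 and Cald1 at -0.09 being the highest. Of 10 endothelial genes 6 were lower, with Cdh5, the cadherin of endothelial junctions, at -2.90 and Kdr, the main VEGF receptor, at -2.44. The other 4 were not called, Flt1 at 0.38 and Tek at 0.22 being the highest. Under loess these were at 0.14 and -0.06. Of the 10 endothelial genes 3 were above background on all 23 arrays. Cdh5 was above background in testis on 5 arrays, and its 3 probes ran from -2.90 to 0.11. The 3 probes of Pecam1 likewise ran from -1.99 to 0.39, and with the mean over all probes of a gene the endothelial median was -0.68 against -1.56 with the brightest probe. The macrophage and leukocyte list had a median of -0.15 and the blood cell list one of -0.11. Of 18 macrophage and leukocyte genes 7 were lower and none higher, among them Lyz2, a lysozyme of macrophages, at least 10.5-fold (mean log2 -3.40, adjusted p = 1.1e-20) with the reference at the ceiling on 23 of 23 arrays. S100a9, a neutrophil protein, stood at -2.72. C1qc was at -1.01 and not called. The remaining genes, Cd68 (0.30) and Cd163 (-0.01) among them, lay between -0.30 and 0.41. The highest of the list were S100a8 at 0.41 and Itgam at 0.39, close to the median of 0.37 of probes never above background. Under loess they were at 0.12 and 0.11. Only 6 of the 18 genes were above background on all 23 arrays, so the list's median is no measure of equal expression. Of 6 blood cell genes only Pf4, from platelets, was called, at -1.51, and of 6 epididymal genes none was called, with Lcn5 lowest at -0.74.

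Lists of adhesion, matrix and antigen presentation also had medians below 0, with members not called in each. Of 20 genes of the adherent cell surface and cytoskeleton 12 were lower, at a median of -1.61, with S100a6 at -3.84, Anxa1 at -3.40 and S100a10 at -3.08. The other 8 were not called, with Itgb1 highest at 0.04 and then Itga5 at -0.03. Of 18 extracellular matrix genes 7 were lower, with Fn1, fibronectin, at -3.28 (-3.95 to -2.79, adjusted p = 2.6e-27), Spp1, osteopontin, at -3.25 and Col1a2, a collagen I chain, at -3.14. The other 11 of that list were not called, with Fbn1 highest at 0.38, then Lum at 0.35, and Thbs2, a thrombospondin, at -0.18. Under loess Fbn1 was at 0.09 and Lum at 0.11. Of 17 genes of the major histocompatibility complex and interferon response 9 were lower, led by B2m, the light chain of class I molecules, at -2.85 (-3.71 to -2.20, adjusted p = 2.5e-21) and Bst2 at -2.51. The other 8 were not called, with RT1-Bb highest at 0.44 and then Ifit1 at 0.36, or 0.18 and 0.10 under loess. Only 5 of the 17 were above background on all 23 arrays. For the organs outside the testis, 8 of 10 lung genes, 5 of 11 kidney, 7 of 17 brain, 5 of 13 heart and skeletal muscle, 3 of 19 liver and 1 of 14 pancreas and gut genes were lower, and none was higher. The shares lower were 15.8% for liver and 7.14% for pancreas and gut, against 9.52% over all genes, where 2.00% were higher. Without Sftpc, Umod, Myh6, Ckm and Gfap, which helped to set the direction, the lower genes were 7 of 9 for lung, 4 of 10 for kidney, 4 of 11 for muscle and 7 of 16 for brain. The lung list had the lowest median, -3.23, or -2.80 without Sftpc. The liver and the pancreas and gut lists had medians of 0.05 and 0.08. That of the pancreas and gut changed sign under loess (-0.10) and with the deposited ratio (-0.11). Of their genes 3 of 19 and 1 of 14 were above background on all 23 arrays. The highest liver genes were Apoa2 at 0.69 and Fga at 0.50. Those of the pancreas and gut were Gcg at 0.33 and Cela2a at 0.26, and none of these was called. Ttr was counted for both liver and brain, and Pvalb for both kidney and muscle.

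**Figure D3:**
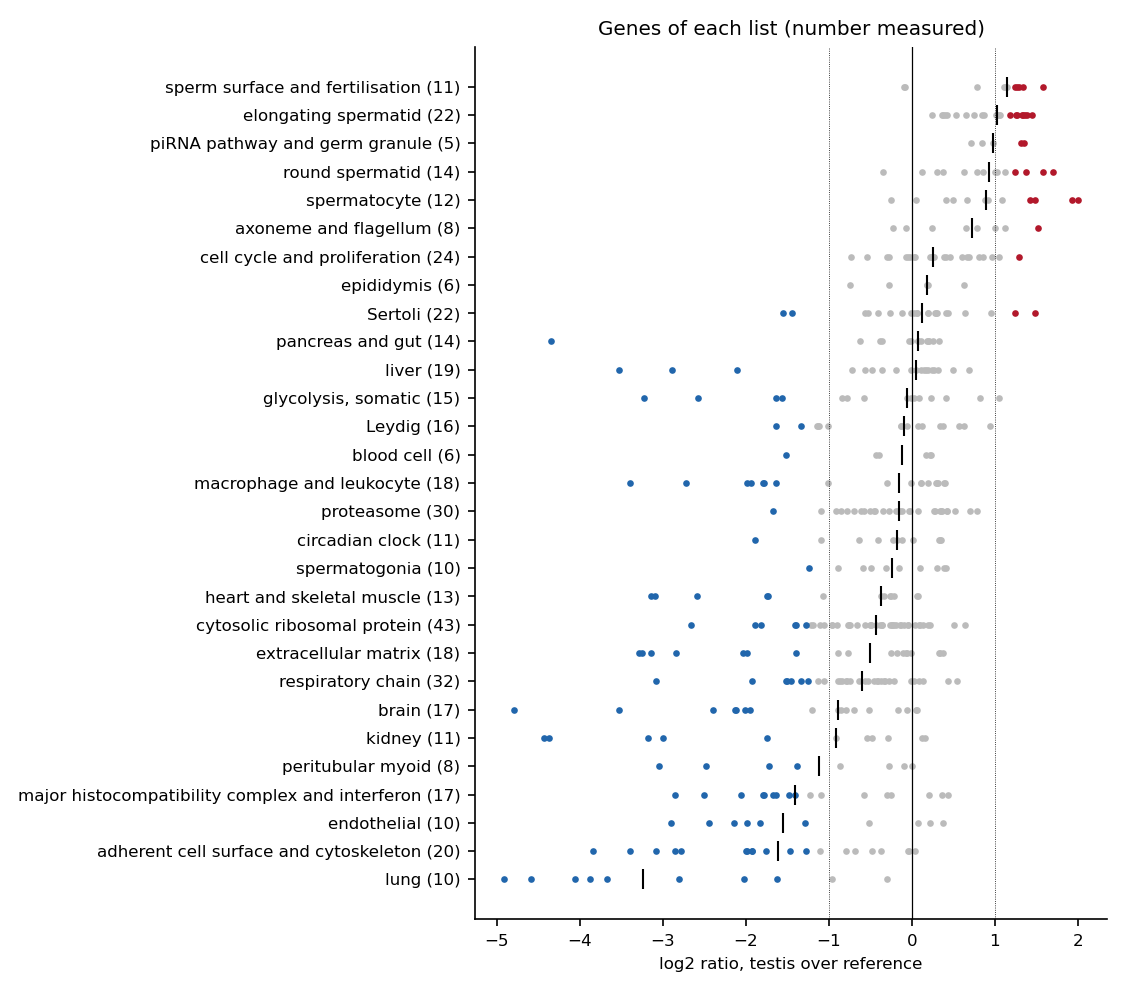
Each point is the mean log2 ratio of testis over reference (23 saline arrays) of 1 measured gene, red for called higher, blue for called lower and grey for not called, in lists ordered by their median (black tick), with dotted lines at 2-fold. The spermatocyte and spermatid lists have medians of 0.90 to 1.02, the sperm surface list the highest median with 1.15, spermatogonia -0.24 and lung the lowest with -3.23.

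In the housekeeping lists single members stood well below the list's median. Of 43 cytosolic ribosomal protein genes 6 were lower and none higher, with a median of -0.43. Over all genes 9.52% were called lower, and under loess 13 of the 43. At the ceiling on some array were 22 of the 43, 14 of them in the reference on most arrays, so their places are uncertain. The X-linked Rpl10, at the ceiling on 1 array, was at -2.66 (-3.32 to -1.95, adjusted p = 1.1e-22), with Rpl13a at -1.89 and Rpl6 at -1.82. Of 32 respiratory chain genes 7 were lower, or 13 under loess, with Cox8a, a subunit of cytochrome c oxidase, at -3.08 (-3.56 to -2.44, adjusted p = 2.5e-25) and Sdhd at -1.92. All 4 subunits of succinate dehydrogenase were measured, and Sdha (-1.34) and Sdhc (-1.51) were called with Sdhd while Sdhb (-1.06) was not. Of 30 proteasome genes 1 was lower, the interferon-inducible catalytic subunit Psmb9 at -1.67. In glycolysis 4 of 15 genes of the widely expressed set were lower and none higher. They were Aldoc (-3.23), Pgk1 (-2.58), Ldhb (-1.64) and Pgam1 (-1.56), whereas Ldha was the highest at 1.05 and not called.

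A gene made in germ cells or needed by them, called the germ cell member here, and its widely expressed relative could be compared within the same arrays for 13 of 38 written pairs. The comparison is between ratios to the reference and not between levels of the genes. In 9 of 13 pairs the germ cell member had the higher ratio, in 8 of them on all 23 arrays. The medians were 0.87 for the germ cell members and -0.38 for their relatives. Of the 13 germ cell members 4 were called higher and 0 lower, and of their relatives 1 was called higher and 5 lower. Over all genes 2.00% were called higher and 9.52% lower. The widest gap was between the cytochromes c, with Cyct, the testis form, between 0.35 and 2.02 (mean 1.30, adjusted p = 0.0020) and Cycs, the somatic form, between -3.26 and -1.80 (mean -2.58, adjusted p = 1.5e-21). The 23 values of Cyct and of Cycs did not overlap. Next were the mitochondrial channels Vdac3 at 0.52 against Vdac1 at -2.74, and the heat shock proteins Hspa2, needed for meiosis in male mice, at 0.67 against Hspa8 at -1.99. Vdac3 was not called, and under loess it was at -0.08 against -2.95 for Vdac1. In the cohesin ring, Stag3 stood at 1.09 against Stag2 at -1.30, and Smc1b at 1.94 against Smc1a at -0.38. Csnk2a2, a catalytic subunit of casein kinase 2, had 0.65 against -1.21 for Csnk2a1, and under loess Csnk2a1 was no longer called (-0.98). In the endoplasmic reticulum Clgn had 1.26 against -0.57 for Canx, and Calr3 had 1.15 against -0.09 for Calr. H1f6, the testis linker histone, had 0.41 against -0.24 for H1f4 and was higher on 20 arrays.

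In the other pairs the widely expressed member had the higher ratio. Ybx2, which binds mRNA in germ cells, had 0.50 against 0.88 for Ybx1, which was higher on 22 of 23 arrays. The lactate dehydrogenases had 0.86 for Ldhc and 1.05 for Ldha. Because Ldhc was at the ceiling on 20 arrays in testis and on 6 in the reference, its ratio was clipped and the pair cannot be ordered. Without it the germ cell member was higher in 9 of 12 pairs. The remaining differences were small and not of one sign over arrays. Papolb and Papola, poly(A) polymerases, had 0.87 and 0.95, with Papolb higher on 7 arrays, and Tbpl1 and Tbp, of the TATA-binding family, had 1.21 and 1.32, with Tbpl1 higher on 7. Tbp was itself called higher (0.57 to 2.03, adjusted p = 1.6e-04).

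**Figure D4:**
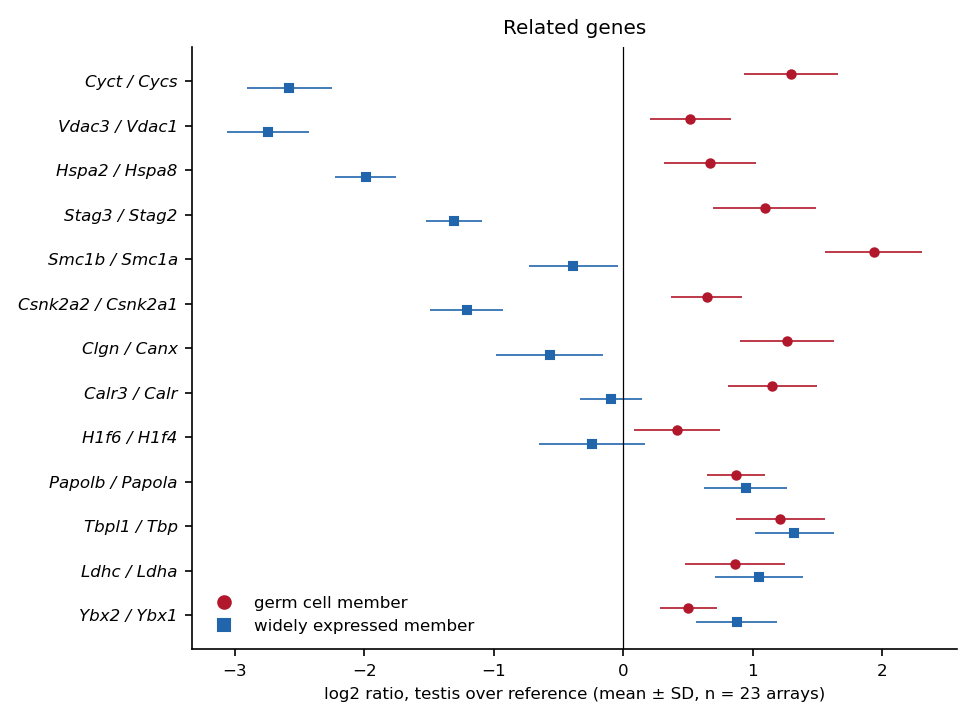
Mean log2 ratio of testis over reference, with SD over 23 saline arrays, for the germ cell member (red circle) and the widely expressed member (blue square) of 13 measured pairs. The germ cell member lies to the right in 9 pairs, by 3.87 log2 units for Cyct and Cycs, and to the left in the lowest 4, of which Ldhc was at the scanner's ceiling in testis on 20 arrays.

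Genes on the X chromosome were lower in testis more often than the rest, as a description without a test. Of 306 measured X-linked genes 47 (15.4%) were called lower, against 868 of 9313 genes (9.32%) elsewhere. Higher calls were 5 (1.63%) on the X and 187 (2.01%) elsewhere. The median log2 ratio was -0.15 for the X and -0.01 elsewhere, and the X median lay below the other on 23 of 23 arrays, from -0.28 to -0.13 against -0.12 to 0.03. The chromosome with the next highest share of lower calls was 15, at 11.7%. Under loess the shares called lower were 13.1% on the X and 7.88% elsewhere. The lower X-linked genes included enzymes of energy metabolism. Pdha1, of the pyruvate dehydrogenase complex, stood at -3.11 (-4.28 to -2.09), Cox7b at -2.95, Pgk1 at -2.58 (-3.25 to -1.85), the mitochondrial carrier Slc25a5 at -2.30, Idh3g at -2.06 and Hsd17b10 at -1.92. Rpl10, the actin-binding Tmsb4x (-2.67, the reference at the ceiling on 10 arrays) and the helicase Ddx3x (-1.95, with 0.51 from its other probe) were also among them, as were matrix and kidney genes such as Bgn (-2.84) and Cltrn. The 5 higher X-linked genes were Rlim, a ubiquitin ligase, at 1.37, Vsig1 at 1.35, H2ap at 1.34, Tsx, named for its testis-specific expression, at 1.25 and Taf7l, a germ cell variant of a general transcription factor subunit, at 1.21. The lower genes were chosen for their energy role after their values were seen.

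**Figure D5:**
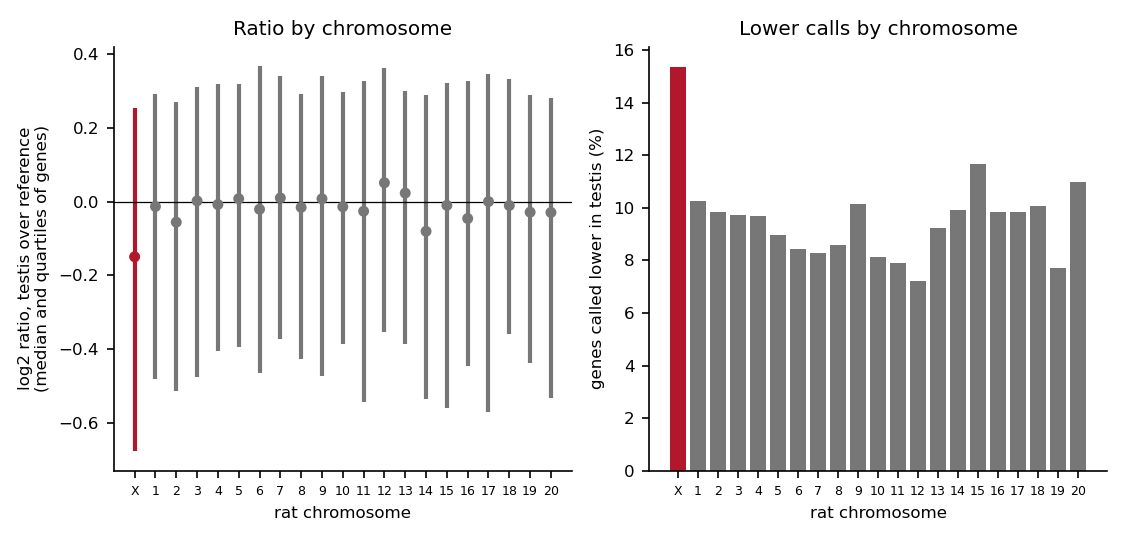
Left, the median (point) and quartiles (line) of the genes' log2 ratio of testis over reference by rat chromosome, with the X in red, and right, the percentage of genes called lower. The X has the lowest median, -0.15, and the highest bar, 15.4%, against at most 11.7% for an autosome.

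The cAMP response element is bound by CREM, a transcription factor that drives many genes of haploid germ cells in mice, so the promoters of the genes called higher were searched for it. The motif was TGACGTCA, which reads the same on both strands, in the 250 bases upstream of the start sites in RefSeq's GRCr8 annotation, where 7930 of 9644 genes had a match. It occurred in 5 of 161 genes called higher (3.11%), 23 of 730 called lower (3.15%) and 206 of all 7930 (2.60%), and in 1.70% of all promoters of the table. TATAAA, searched on both strands, occurred in 9.94% of the higher, 9.32% of the lower and 8.20% of all measured genes, and in 13.1% of all promoters. The motif thus was about as frequent in both directions. The 5 higher genes that hold it are shown with their surroundings, the motif in capitals, 5′ to 3′ on the strand of the gene. They are Spata7 (chr6:123609500-123609547, plus strand, log2 ratio 1.39), Rab11fip3 (chr10:15591196-15591243, minus strand, 1.34), Fkbpl (chr20:4105980-4106027, minus strand, 1.26), Mlf1 (chr2:153958471-153958518, plus strand, 1.25) and Ell2 (chr2:6921602-6921646, plus strand, 1.21).
Spata7: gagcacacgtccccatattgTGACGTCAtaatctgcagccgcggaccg
Rab11fip3: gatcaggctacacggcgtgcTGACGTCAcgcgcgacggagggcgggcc
Fkbpl: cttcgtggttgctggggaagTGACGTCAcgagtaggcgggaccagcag
Mlf1: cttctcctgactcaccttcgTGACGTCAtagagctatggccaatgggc
Ell2: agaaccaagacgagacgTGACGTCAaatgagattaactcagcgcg
The motif ended 86, 42, 72, 92 and 225 bases before the start site in these genes, in the order shown.

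No probe differed between the 4 saline times by limma's F test with Benjamini-Hochberg adjustment (0 of 20500, 0%). The smallest adjusted p was 0.9998. An unadjusted p under 0.05 was reached by 627 of the 20500 probes, a smaller share than the 0.05 that no difference would give on average. The testis channel alone also gave 0. With the hybridisation day as a fixed term the count was 118, on 10 residual degrees of freedom. Only 2 of the 10 days held more than 1 time, and in that fit only those days compare times. The gene with the smallest p was Pla2g2c, a secreted phospholipase, whose log2 ratio averaged 0.69 ± 0.19, 0.82 ± 0.12, 1.06 ± 0.04 and 0.39 ± 0.30 at 4, 8, 12 and 24 h (SD, n = 5, 6, 6 and 6). The lowest and highest arrays at each time were 0.43 and 0.91, 0.67 and 1.00, 1.01 and 1.11, and 0.13 and 0.91. The 12 h arrays barely lay above all others, the lowest at 1.0055 against 1.0031 for the highest 8 h array. The other 3 groups overlapped. Because Pla2g2c was picked for its small p among 20500 probes, its pattern is no further test. After it came Selenoi, Arl6ip5, Ifi35, Itga8 and Gabra6. Of 11 measured circadian clock genes none passed. Dbp, an output gene of the clock, was called lower than the reference at -1.89, and averaged -1.85 ± 0.46, -1.77 ± 0.32, -1.89 ± 0.21 and -2.06 ± 0.37 at 4, 8, 12 and 24 h (SD, n = 5, 6, 6 and 6), with overlapping ranges and an unadjusted p of 0.53 by limma's F test.

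Some genes varied between arrays far beyond the usual SD of 0.31. The largest SDs among genes above background on all arrays were those of Rapgef2 (1.33), Cenpk (0.81), Sgms1 (0.80) and Pygl (0.72), followed by Fth1 (0.66), Lyz2 (0.63), Rpl9 (0.62) and Rpl5 (0.61). For those last 4 the reference was at the ceiling on 22, 23, 21 and 18 of 23 arrays, so their ratios follow the ceiling and not the reference's level. For Rapgef2 it was at the ceiling on 19. Rapgef2, an exchange factor for a small GTPase, ran from -5.00 to -0.89, and its 4 probes ran from -3.09 to 0.45. Cenpk, a kinetochore protein, ran from -0.04 to 2.51 with a median of 0.88. All 6 arrays of 3 hybridisation days and saline 4 h animal 9 of another day lay between 1.99 and 2.51, and the other 16 arrays at 1.21 or below. Sgms1, a sphingomyelin synthase, was at -2.61 on the array of saline 8 h animal 18, one of the pair that correlated least with the others, and between 0.72 and 1.5 on the other 22. On that array its reference signal was 16665, against 1185 to 5979 on the other 22, and its testis signal was 1910.5. That low ratio thus went with a high signal in the reference channel, whose cause was not tested. Pygl, the liver glycogen phosphorylase, stood at 0.62 and 1.90 on both arrays of a single hybridisation day, and between -1.44 and -0.19 on the other 21.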

How the data were processed

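RNA of 23 testes of saline animals was measured on 2-colour oligonucleotide arrays of 22573 spots. Per the file headers, the authors deposited 2 raw intensity columns, 2 processed intensity columns, a log2 ratio and flags for each array. No background intensities were among them, and the sources used here do not give their normalization. The 2073 spots without processed values on every array were left out of the tests, which leaves 20500 probes. Symbols came from the platform annotation, updated through gene identifiers: 12736 probes had 1 symbol, 5 several and 7759 none. Of 9644 genes 2262 had several probes, and the brightest stood for the gene. Some probe passed the 2-fold test for 312 of those genes. Among the 312, full agreement between a gene's probes was found for only 57, and opposite calls for 2. Gene and list counts thus describe the brightest probe, from which the gene's other probes often differed.

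From the raw intensities log2(testis/reference) was computed and the array median set to 0. limma 3.58.1 in R 4.3.3 fitted the mean over arrays, with the hybridisation day as a random block (10 days of 2 to 4 arrays, correlation 0.052), followed by treat against 2-fold, and an F test over the times. The tests were tried on simulated data first. No 2 saline arrays shared a channel. P-values measure the spread between animals and hybridisations. The number of arrays limits the precision.

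The genes chosen by rule were the 20 highest and 20 lowest called, the 2 highest and 2 lowest of each list, the measured pairs, the 6 with the smallest p between times with the clock list, and the 8 most variable. Not every gene so chosen is printed, and for the lists of other organs mostly the low ones are. Other members named for their role were chosen after their values were seen, and the members and lists were chosen with earlier results of these data known. Alternatives were loess, the authors' deposited log2 ratio, the deposited series table, normexp with an offset of 50, filters on dim or saturated probes, other terms for the day, other minimum ratios, the opposite channel, the mean over probes and leaving out each array. Of the 23 saline columns of the series table, 4 equalled their own array's deposited ratio within 1e-06, and 19 equalled another array's, 10 of these a treated array's. List counts without the genes that set the direction, without genes at the ceiling or under loess, and folds restricted to genes above background, were added after seeing the data. Protein sequences were not used here.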

Additional observations from a re-analysis of the deposited data

Results flagged for a closer look

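Each time group of 5 or 6 animals was searched for a single array apart from the others by Dixon's criterion, over 17 genes of the time comparison. Chance flags about 1 in 20 groups, and 3 of 68 were flagged. Clock, a core gene of the circadian clock, was at a log2 ratio of -0.24 in saline 24 h animal 42, whose array also correlated least with the rest, and at 0.38 to 0.73 in the other animals of that time. Cry2, a repressor of the same clock, was at 1.02 in saline 24 h animal 38, against 0.16 to 0.45 in the others. Arl6ip5 was at -0.21 in saline 8 h animal 17, against -1.17 to -0.88 in the others.

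Among the 2073 spots that the authors left without processed values, 353 were above background on all 23 saline arrays, and 655 on none. The 353 spots had a median log2 ratio of 3.98 for the testis channel over the reference channel. Of them 254 had a mean above 1, whereas no spot of the 2073 had a mean below -1. The highest mean among the 20500 probes tested was 2.73. Of the 2073 spots 14 carry a gene symbol, and what the others detect is not given in the sources used here.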

How the results depend on the processing

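The 297 higher and 1507 lower calls became 357 and 1204 with loess, 468 and 1129 with the deposited ratio, 477 and 1096 with the series table as labelled, and 705 and 2022 with normexp. They were 318 and 1163 among probes above background on at least 50% of the arrays, 243 and 1447 without saturated probes, and 306 and 1522 with no term for the day. Against a log2 ratio of 0 there were 8488 and 7309, against 2 there were 1 and 284, and with the Cy5 channel as testis 1507 and 297. Leaving out 1 array at a time gave 265 to 341 higher and 1459 to 1550 lower. Of the 297 and 1507 calls, 182 and 1139 remained under loess, 265 and 1112 with the deposited ratio, and 297 and 1497 under normexp. Between times the count was 0 throughout, leave-one-out included, except 118 with the day as a fixed term. The cause of these differences was not tested.

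List medians kept their sign in 30 of 31 lists under loess, normexp and the mean over probes, and in 28 of 31 with the deposited ratio. That of the Leydig list was -0.09 and became 0.01 with the deposited ratio. That of glycolysis was -0.06 and became 0.03 with the deposited ratio and with normexp. That of the clock was -0.17 and became 0.01 over all probes. Csnk2a1, Stag2 and Tdrd7 lost their calls with the deposited ratio. No paired analysis was possible because animal numbers do not recur between groups. Signals near background, without a deposited background intensity, and signals at the ceiling limit the ratios at both ends.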

Other observations

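Members of the housekeeping and cell cycle lists not yet described differed in their ratios. Among the somatic glycolytic genes Tpi1 stood at 0.41 and Eno1 at 0.23, Aldoa at -0.57, Pkm at -0.78 and Gpi at -0.84, none of them called. Hk1, the hexokinase with a spermatogenic form, was at 0.82. In the cell cycle list Cks2 (1.05), Ccnb2 (0.96), Mki67 (0.86) and Cdk1 (0.81), all of dividing or meiotic cells, stood nearest to Plk1, while the replication helicase subunits ran from 0.67 for Mcm7 to -0.73 for Mcm4. Within the proteasome, the regulatory subunits Psmd12 (0.79) and Psmd8 (0.70) were highest, and the immunoproteasome subunits Psmb9 (-1.67, called) and Psmb8 (-1.09, not called) were lowest. These members were chosen after their values were seen.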
